A study of Mus musculus with 10 samples.

Results

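The genes described here handle iron. For export they are *Slc40a1* (ferroportin) and the ferroxidase *Heph* (hephaestin). For uptake they are *Tfrc* (transferrin receptor), *Slc11a2* (DMT1) and the ferrireductase *Steap3*. The others are the storage subunit *Fth1* (ferritin heavy chain), the iron regulatory proteins *Aco1* and *Ireb2*, and *Hmox1* (haem oxygenase 1). Together they are 9 of the 18193 genes that the array's annotation names, and every one of their features was taken, 23 of 45101. *Slc40a1* was chosen by its rise in iPGCs over ESCs in these same arrays, so its values in that comparison are a description and carry no test. RNA was measured on 10 Affymetrix Mouse Genome arrays, 2 for each of 5 sorted populations. In vitro derived primordial germ cells (iPGCs) came from embryoid bodies (EBs) at day 6, as Oct4-Gfp+/cKit bright cells of the Oct4-Gfp line and as SSEA1+/cKit bright cells of the V6.5 line. Somatic cells came from the same day, as Oct4-Gfp-/cKit- cells of the Oct4-Gfp line and SSEA1-/cKit- cells of the V6.5 line. Embryonic stem cells (ESCs) were undifferentiated V6.5 cells at day 0, grown on a feeder layer of mouse embryonic fibroblasts and sorted as SSEA1+/cKit+. No array holds ESCs of the Oct4-Gfp line. The V6.5 line is a 129xBL6 F1, whereas the Oct4-Gfp line, which carries a green reporter driven by the *Pou5f1* promoter, has a mixed background, so line, background and sort cannot be told apart. EBs were made in hanging drops without LIF, and ESCs and EBs were dissociated with trypsin before sorting.

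Mammalian cells take up transferrin-bound iron through the transferrin receptor. *Steap3* then reduces the iron inside endosomes and *Slc11a2* carries it into the cytosol. Iron that is not used is stored in ferritin or leaves the cell through ferroportin, the only iron exporter known in mammals, and the ferroxidase *Heph* oxidises it on the way out. When iron is scarce, the proteins encoded by *Aco1* and *Ireb2* bind RNA hairpins that stabilise the *Tfrc* transcript and block translation of ferritin and ferroportin. *Hmox1* releases iron from haem and is a target of Nrf2 and of the repressor Bach1. Macrophages, erythroid cells and visceral endoderm are cells known for strong ferroportin expression.

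The values are signals on a linear scale, and background is the 95th percentile of 44 olfactory receptor probe sets on each array, which lay between 12.6 and 25.4. Differences are given on a log2 scale after adding 14.77 to each signal, from 1 limma model of the 5 groups, and a gene was called at an adjusted p under 0.05 (Benjamini-Hochberg over 26368 probe sets). Each gene was represented by its brightest probe set, which stood for 12207 tested genes in all, among them each of the 9. *Heph* passed the filter on low signals only through somatic arrays. No source read here says that 2 arrays of a group came from separate cultures, so a p-value measures the spread between these arrays, and bulk RNA cannot tell fewer expressing cells from less RNA per cell. Signals of different probe sets are not compared with each other, since probe sets differ in how well they hybridise. For *Gapdh* the array carries control probe sets at each end of the transcript, and the signal of the 3' set over the 5' set, which increases as RNA is degraded, was 1.51 to 2.37 in iPGCs, 1.65 to 2.05 in somatic cells and 1.28 to 1.30 in ESCs. It thus moved with each comparison against ESCs. With this ratio as a covariate limma called 0 of 12207 genes between iPGCs and ESCs, of which 2505 had an unadjusted p under 0.05, so no call against ESCs below held there for iPGCs of both lines. Of the 7 calls between somatic cells and ESCs, those of *Slc40a1*, *Heph* and *Tfrc* held with it and those of *Hmox1*, *Steap3*, *Slc11a2* and *Aco1* were lost. The *Heph* call is a description, given how this gene passed the filter.

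The summed signals of marker lists followed the labels of the sorted cells, which was partly set in advance. *Kit*, among the PGC markers, was an antigen of the sort. The promoter of *Pou5f1*, among the pluripotency markers, drives the reporter by which cells of the Oct4-Gfp line were sorted. The paper names *Hand1* and *Tbx20*, among the somatic markers, from these same arrays. The summed signal of 7 PGC markers was 20264 to 20897 in iPGCs, 1487 to 2278 in somatic cells and 10615 to 11365 in ESCs. For 7 markers of day 6 somatic cells it was 2577 to 3955 in iPGCs, 27563 to 29705 in somatic cells and 5074 to 5186 in ESCs. For 6 pluripotency markers it was 25765 to 30551 in iPGCs, 830 to 1388 in somatic cells and 33164 to 33459 in ESCs. *Vim* alone had 4820 and 4986 of the somatic marker sum in ESCs.

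*Slc40a1* had its highest signal in iPGCs, an intermediate one in somatic cells and its lowest in ESCs. Its main probe set had signals of 1334 and 1741 in Oct4-Gfp iPGCs and 755 and 1145 in V6.5 iPGCs. In somatic cells it had 316 and 329 in the Oct4-Gfp line and 371 and 381 in the V6.5 line, and in ESCs 59.8 and 45.1. The 5 groups ran in the order Oct4-Gfp iPGCs, V6.5 iPGCs, V6.5 somatic cells, Oct4-Gfp somatic cells and ESCs, and no neighbours in this order overlapped. The other probe set gave the same order of means, with 465 to 959 in iPGCs, 195 to 274 in somatic cells and 65.3 and 75.2 in ESCs, but the iPGC lines overlapped on it and so did the somatic lines. As a description, iPGCs lay 4.17 above ESCs on the log2 scale by the main probe set and 3.20 by the other, and within the V6.5 line the main probe set gave 3.82.

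Against somatic cells of the same day, *Slc40a1* was higher in iPGCs by 1.73 ± 0.16 on the log2 scale (SE, adjusted p = 4.21e-05 from limma), and the other probe set gave 1.72 (adjusted p = 0.000275). The difference was called in the Oct4-Gfp line (2.19, adjusted p = 0.000158) and in the V6.5 line (1.27, adjusted p = 0.00242). Somatic cells themselves were higher than ESCs by 2.44 ± 0.19 (SE, adjusted p = 2.37e-05), with 1.48 on the other probe set (adjusted p = 0.00181). These tests share the iPGC or the ESC arrays with the contrast by which the gene was chosen, and so are not independent of that choice. These 4 calls of the main probe set held in every alternative setting and with each array left out.

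*Heph*, whose product works alongside ferroportin, had another order. It had signals of 9.65 and 12.8 in Oct4-Gfp iPGCs and 28.8 and 32.5 in V6.5 iPGCs, against 62.7 and 80.9 in Oct4-Gfp somatic cells, 146 and 90.4 in V6.5 somatic cells, and 0.73 and 0.551 in ESCs. Every somatic array lay above every iPGC array, and both ESC arrays and both Oct4-Gfp iPGC arrays lay below background. In iPGCs it was lower than in somatic cells (log2 difference -1.62, SE 0.15), and at least 4.14-fold lower within the Oct4-Gfp line. Against ESCs only bounds on the fold can be given, taking the background as the ESC level. *Heph* was at least 1.21-fold higher in iPGCs of both lines together, at least 2.01-fold higher in V6.5 iPGCs alone and at least 5.95-fold higher in somatic cells. No bound can be given for Oct4-Gfp iPGCs, which were below background as well. The call for iPGCs of both lines was lost with a floor in place of the added offset, which gave 0.53. The filter on low signals admitted *Heph* only through somatic arrays, the group where it is high. Its differences that involve somatic cells are therefore descriptions, given without a p-value.

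**Figure D1:**
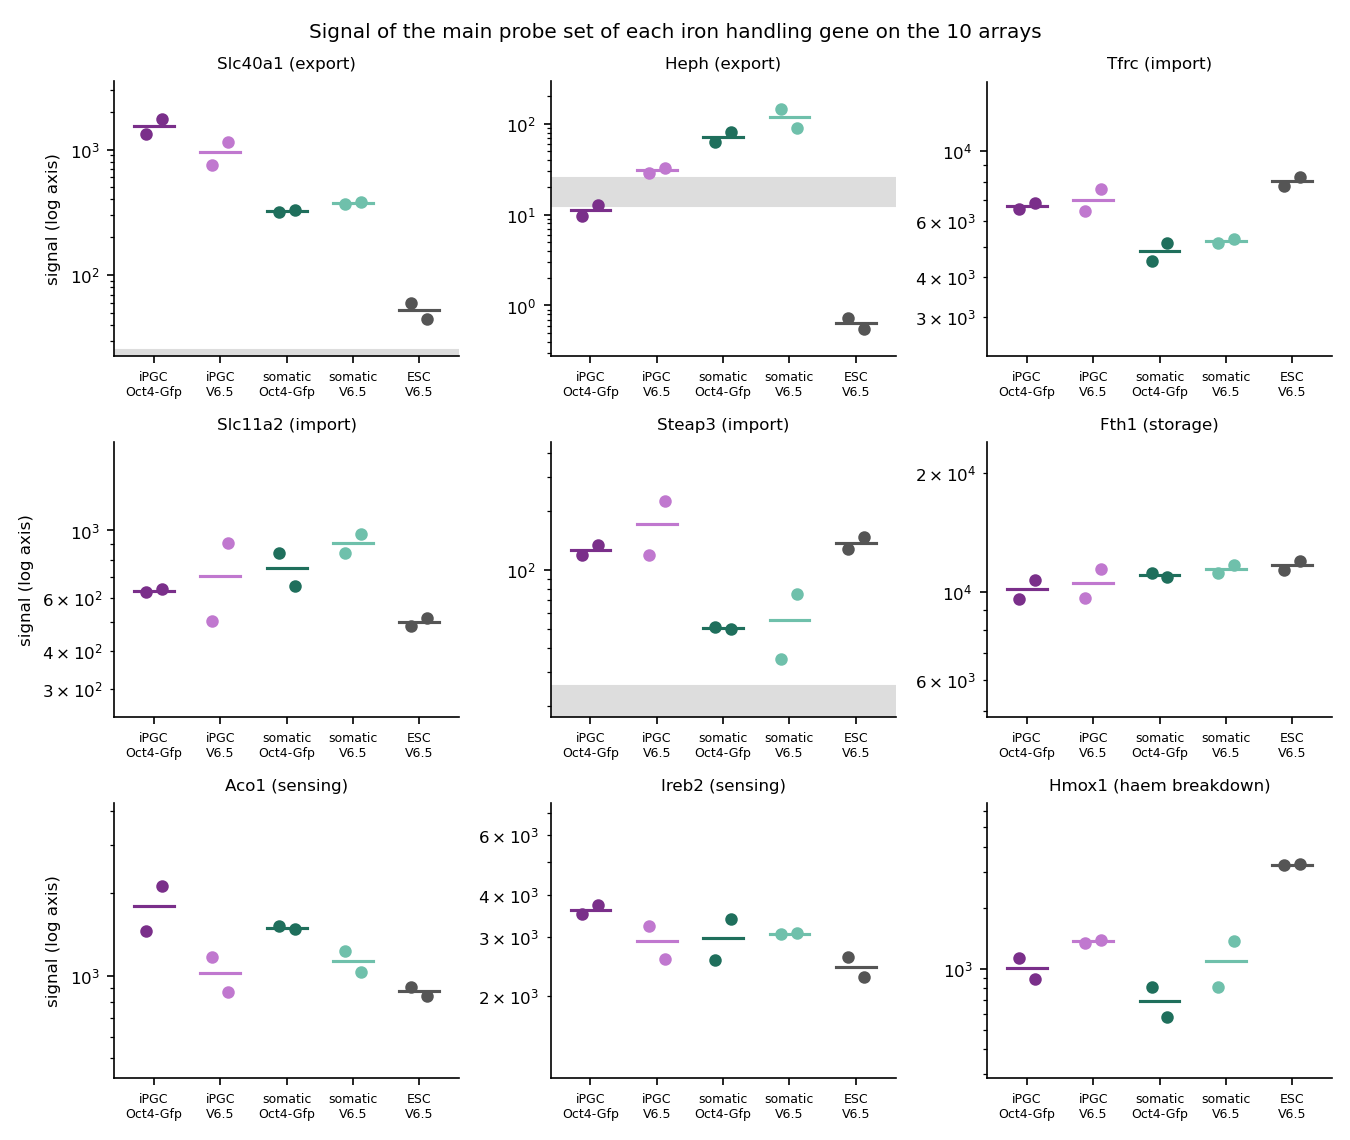
Signal of the main probe set of each of the 9 genes (vertical, log axis) on each array, by group (horizontal). Points are arrays, short lines are means of 2 arrays, and the grey band is the range of the background over the arrays. *Slc40a1* lies between 755 and 1741 in iPGCs, 316 and 381 in somatic cells and 45.1 and 59.8 in ESCs, while *Heph* is highest in somatic cells and below the band in ESCs.

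*Tfrc*, the transferrin receptor, had its highest signal in ESCs, an intermediate one in iPGCs and its lowest in somatic cells. Its RefSeq promoter window, from 250 bases before to 50 after an annotated start (GRCm38.p6, chr16:32608646-32608945, plus strand), is shown because this gene was measured by more probe sets than any other of the 9 and differed between cell types on most of them. The capitals mark ACGTG, a form of the core of the hypoxia response element, at position -2 relative to the start. On either strand (ACGTG or CACGT) this motif occurs in 19.6% of the 32851 promoter windows of the table, and a match is a description, not a site in use.
Tfrc: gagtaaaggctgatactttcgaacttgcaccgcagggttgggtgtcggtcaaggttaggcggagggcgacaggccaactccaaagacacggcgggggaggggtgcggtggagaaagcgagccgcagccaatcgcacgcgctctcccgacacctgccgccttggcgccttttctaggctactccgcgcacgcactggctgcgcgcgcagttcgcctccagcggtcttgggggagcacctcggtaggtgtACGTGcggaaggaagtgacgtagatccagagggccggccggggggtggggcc

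Promoter windows were found for 5 of the 9 genes, with 10 starts in all. ACGTG was absent from the windows of *Steap3*, *Fth1*, *Aco1* and *Ireb2*. The other form of the core, GCGTG, occurs on either strand in 32.4% of all promoter windows and is not marked above. It occurred 2 times in the *Tfrc* window shown and 1 time each in a *Steap3* and an *Fth1* window, and was absent from those of *Aco1* and *Ireb2*.

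The brightest *Tfrc* probe set had signals of 6580 and 6871 in Oct4-Gfp iPGCs and 6471 and 7572 in V6.5 iPGCs. It had 4512 and 5135 in Oct4-Gfp somatic cells, 5142 and 5295 in V6.5 somatic cells and 7768 and 8269 in ESCs. The 3 cell types did not overlap. On this probe set iPGCs were higher than somatic cells by 0.45 ± 0.10 (SE, adjusted p = 0.0045 from limma), somatic cells were lower than ESCs (log2 difference -0.68, adjusted p = 0.00153), and the difference of iPGCs from ESCs was -0.22 with an interval of -0.50 to 0.05 (adjusted p = 0.167). Both other probe sets showed larger differences. The second brightest had 2334 and 2212 in Oct4-Gfp iPGCs and 2256 and 3678 in V6.5 iPGCs, against 1403 to 1811 in somatic cells and 5604 and 6244 in ESCs. On it *Tfrc* in iPGCs was lower than in ESCs (log2 difference -1.20, adjusted p = 0.0021) and higher than in somatic cells by 0.67 (adjusted p = 0.00583). The third gave -1.10 against ESCs (adjusted p = 0.00241) and 0.85 against somatic cells (adjusted p = 0.00123).

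Affymetrix also places *Tfrc* on the array as a control, with probe sets for the 5' end, the middle and the 3' end of the transcript, which were left out of the tests. All 3 were lower in every iPGC array than in both ESC arrays, with log2 differences of -1.45 for the 5' set, -1.24 for the middle set and -1.05 for the 3' set. The 5' set had 1461 to 2902 in iPGCs, 872 to 1329 in somatic cells and 4835 and 5412 in ESCs, and the 3' set had 973 to 1985 in iPGCs, 512 to 895 in somatic cells and 2580 and 2816 in ESCs. Thus 5 of the 6 *Tfrc* probe sets placed iPGCs about 1 log2 unit or more below ESCs, and the brightest one did not. Within the lines the brightest probe set was called higher in iPGCs than in somatic cells in the Oct4-Gfp line (0.48, adjusted p = 0.0221) and in the V6.5 line (0.42, adjusted p = 0.0371). Neither within-line call was stable: that of the V6.5 line was lost without any 1 of 7 arrays (either ESC array, either Oct4-Gfp iPGC array, either V6.5 somatic array or V6.5 iPGC replicate 2, adjusted p up to 0.17), and that of the Oct4-Gfp line without either Oct4-Gfp iPGC array or Oct4-Gfp somatic replicate 1 (up to 0.113).

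**Figure D2:**
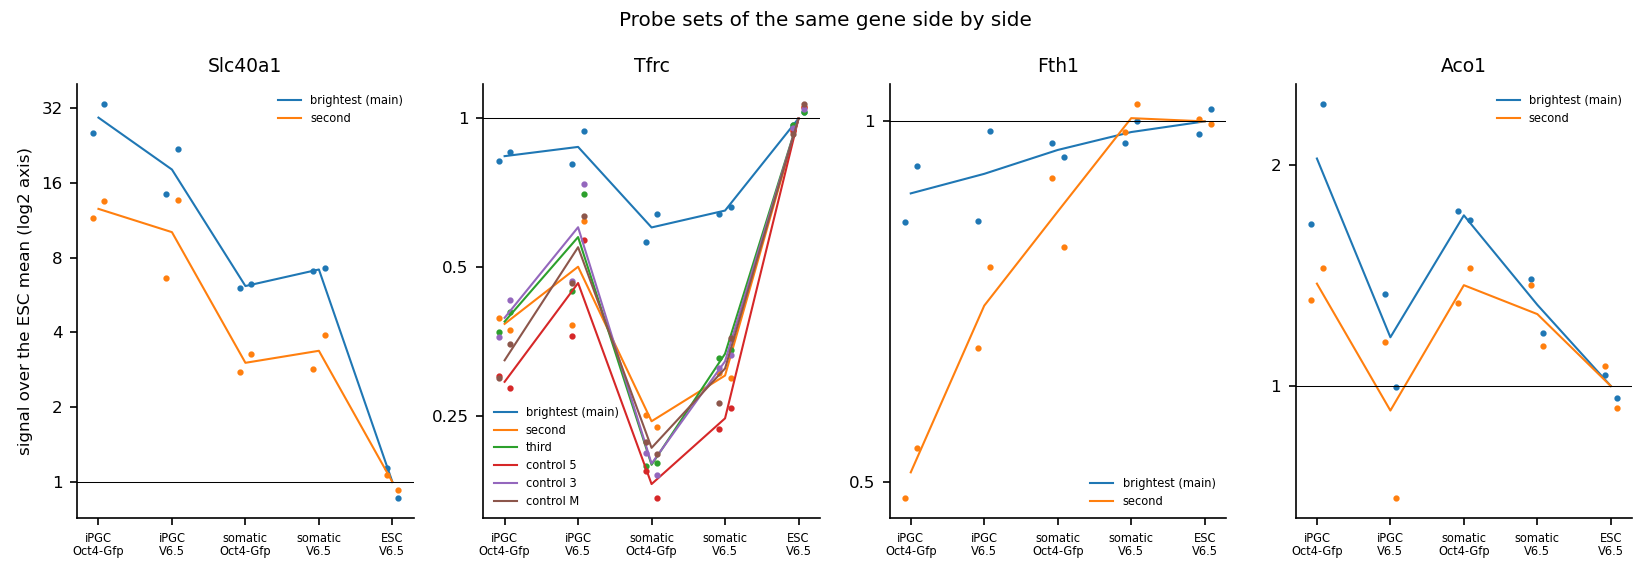
Signal relative to the mean of the ESC arrays (vertical, log2 axis) for the probe sets of *Slc40a1*, *Tfrc*, *Fth1* and *Aco1* by group (horizontal). Points are arrays, lines join the group means of 1 probe set, and control 5, control M and control 3 are the control probe sets for the 5' end, the middle and the 3' end of *Tfrc*. The main probe sets of *Tfrc* and *Fth1* spread less between groups than the others of the same gene.

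*Steap3*, the endosomal ferrireductase, separated somatic cells from the other 2 cell types. Its main probe set had 119 and 135 in Oct4-Gfp iPGCs and 120 and 226 in V6.5 iPGCs, against 51.1 and 49.9 in Oct4-Gfp somatic cells, 35.1 and 75.6 in V6.5 somatic cells, and 128 and 148 in ESCs. It was higher in iPGCs than in somatic cells by 1.27 ± 0.23 (SE, adjusted p = 0.00185) and lower in somatic cells than in ESCs (log2 difference -1.20, adjusted p = 0.00647), the second call being lost with the *Gapdh* covariate (-1.53, adjusted p = 0.116). Between iPGCs and ESCs the difference was 0.07 with an interval of -0.59 to 0.72 (adjusted p = 0.863). It was higher in iPGCs than in somatic cells within the Oct4-Gfp line (1.12, adjusted p = 0.0236) and within the V6.5 line (1.42, adjusted p = 0.00864). The first was lost without any 1 of the 4 arrays of that line (adjusted p up to 0.106), and the second without V6.5 somatic replicate 1 (0.99, adjusted p = 0.0557). Both other *Steap3* probe sets were dim, with no array above 57.9, and were not tested.

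*Slc11a2*, the transporter DMT1, was highest in somatic cells on its main probe set. It had 624 and 641 in Oct4-Gfp iPGCs and 503 and 910 in V6.5 iPGCs, against 843 and 657 in Oct4-Gfp somatic cells, 845 and 976 in V6.5 somatic cells, and 483 and 513 in ESCs. Somatic cells were higher than ESCs by 0.71 ± 0.23 (SE, adjusted p = 0.0248), a call lost under quantile normalization and under median centring. The differences of iPGCs were 0.38 from ESCs (interval -0.14 to 0.91, adjusted p = 0.205) and -0.32 from somatic cells (interval -0.75 to 0.10, adjusted p = 0.168). Each turned on the V6.5 iPGC arrays: without replicate 1 they were 0.59 from ESCs, then called (adjusted p = 0.0201), and -0.11 from somatic cells, and without replicate 2 they were 0.18 from ESCs and -0.53 from somatic cells, then called (adjusted p = 0.00987). The somatic call was lost without either ESC array, without V6.5 somatic replicate 2 or without Oct4-Gfp somatic replicate 1 (adjusted p up to 0.116). The probe sets of *Slc11a2* disagreed: the second brightest had 371 to 484 in iPGCs, 355 to 443 in somatic cells and 466 and 533 in ESCs, and its somatic difference from ESCs was -0.29 (adjusted p = 0.109), whereas the third gave 0.53 (adjusted p = 0.0541) and the dimmest 0.53 (adjusted p = 0.0498).

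*Fth1*, which makes the heavy chain of ferritin, varied little on its main probe set and more on the other. The main probe set had 9626 and 10705 in Oct4-Gfp iPGCs and 9648 and 11461 in V6.5 iPGCs, against 10906 to 11684 in somatic cells and 11388 and 11960 in ESCs. The differences were -0.18 between iPGCs and ESCs (adjusted p = 0.268), -0.12 between iPGCs and somatic cells (adjusted p = 0.316) and -0.05 between somatic cells and ESCs (adjusted p = 0.71), and their signs depended on the scaling. Quantile normalization gave 0.17 between iPGCs and ESCs and 0.37 between somatic cells and ESCs, the second of them called (adjusted p = 0.012), and median centring gave 0.09 between iPGCs and somatic cells. The other probe set had 2659 and 2930 in Oct4-Gfp iPGCs and 3551 and 4148 in V6.5 iPGCs. It had 4916 and 4309 in Oct4-Gfp somatic cells, 5369 and 5669 in V6.5 somatic cells and 5510 and 5460 in ESCs. On this probe set iPGCs lay below both other cell types with no overlap, lower than ESCs (log2 difference -0.74, adjusted p = 0.00267) and lower than somatic cells (log2 difference -0.62, adjusted p = 0.000933). Its suffix _s_at marks probes that can match transcripts of more than 1 gene, so this signal may include sequences related to *Fth1*.

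*Aco1* and *Ireb2* encode the sensors that act on the transcripts of *Tfrc*, ferritin and ferroportin. The main *Aco1* probe set had 1457 and 2123 in Oct4-Gfp iPGCs and 1168 and 874 in V6.5 iPGCs, against 1518 and 1477 in Oct4-Gfp somatic cells, 1226 and 1035 in V6.5 somatic cells, and 907 and 845 in ESCs. On every array of the Oct4-Gfp line, iPGC or somatic, it was higher than on every V6.5 array. The second brightest probe set did not separate the lines in somatic cells, with 1164 and 1300 in the Oct4-Gfp and 1232 and 1018 in the V6.5 line. In iPGCs it had 1177 and 1299 in the Oct4-Gfp and 1031 and 631 in the V6.5 line. By the main probe set *Aco1* was higher than in ESCs by 0.60 ± 0.19 in iPGCs (SE, adjusted p = 0.0336) and by 0.56 ± 0.19 in somatic cells (SE, adjusted p = 0.0289). Both calls were lost under median centring, with no filter and on V6.5 arrays only. Within the V6.5 line, which alone has ESC arrays, the difference of iPGCs from ESCs was 0.20 (interval -0.29 to 0.70, adjusted p = 0.507). Without either ESC array, V6.5 iPGC replicate 1 or Oct4-Gfp iPGC replicate 2 the iPGC call was lost (adjusted p up to 0.167), and the somatic call was lost without either ESC array, V6.5 somatic replicate 1 or either Oct4-Gfp somatic array (up to 0.139). The second brightest probe set gave 0.16 for iPGCs against ESCs (adjusted p = 0.561) and 0.38 for somatic cells against ESCs (adjusted p = 0.126). The suffix _x_at of the main probe set likewise marks probes that can match other sequences.

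*Ireb2* had 3494 and 3727 in Oct4-Gfp iPGCs and 3234 and 2582 in V6.5 iPGCs, against 2566 and 3396 in Oct4-Gfp somatic cells, 3051 and 3067 in V6.5 somatic cells, and 2611 and 2279 in ESCs. The 3 cell types overlapped, and no difference was called. That between iPGCs and ESCs was 0.40 (interval 0.04 to 0.76, adjusted p = 0.0713), and that between iPGCs and somatic cells was 0.10 (interval -0.19 to 0.40, adjusted p = 0.518).

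*Hmox1* was the only one of the 9 genes called lower in iPGCs than in ESCs on its main probe set. It had 1130 and 886 in Oct4-Gfp iPGCs and 1338 and 1386 in V6.5 iPGCs, against 808 and 574 in Oct4-Gfp somatic cells, 807 and 1366 in V6.5 somatic cells, and 3261 and 3272 in ESCs. Both ESC arrays lay far above the 8 arrays of day 6. In iPGCs it was lower than in ESCs (log2 difference -1.47, SE 0.23, adjusted p = 0.0022), and in somatic cells (log2 difference -1.93, SE 0.23, adjusted p = 0.000188). The somatic call was lost with the *Gapdh* ratio as a covariate (-1.29, adjusted p = 0.0719). Within the V6.5 line the difference of iPGCs from ESCs was -1.25 (adjusted p = 0.0128), a call lost without either ESC array (adjusted p up to 0.065). Between iPGCs and somatic cells the difference was 0.46 (interval 0.02 to 0.89, adjusted p = 0.0674), and the arrays overlapped. It was called under median centring (0.67, adjusted p = 0.00939), limma-trend (adjusted p = 0.0236) and the *Gapdh* covariate (0.53), and without V6.5 somatic replicate 2 (adjusted p = 0.0134) or Oct4-Gfp somatic replicate 1 (0.58).

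**Figure D3:**
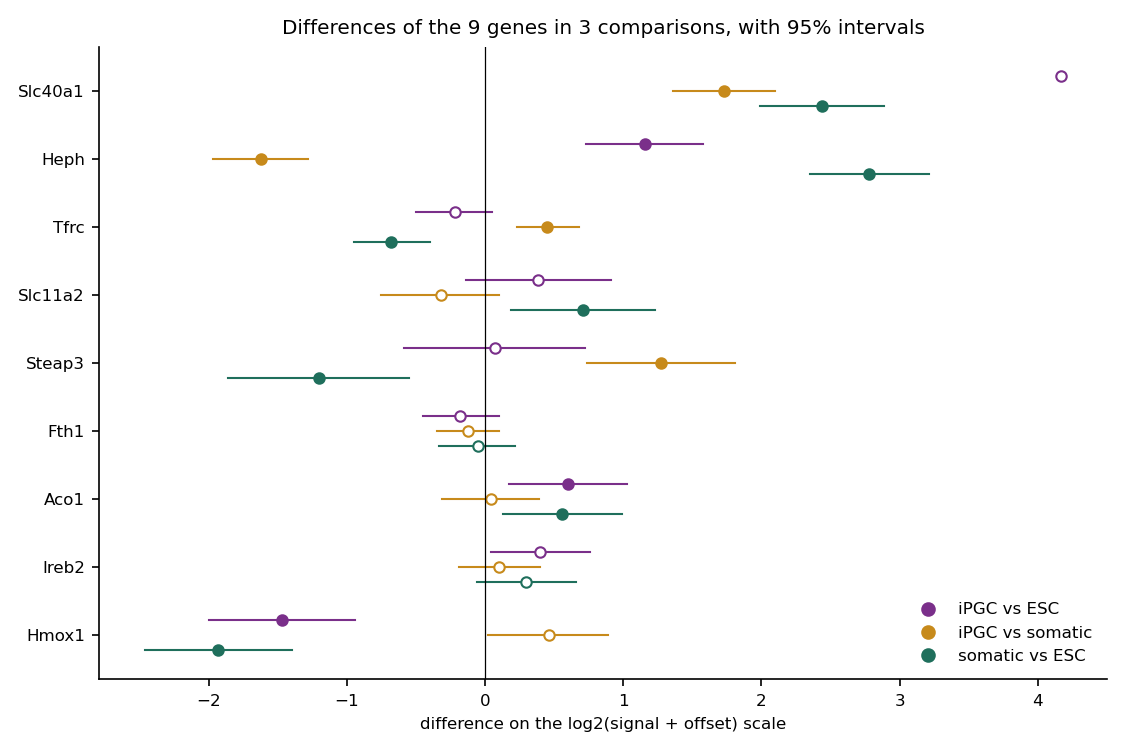
Differences of the 9 genes on the log2(signal + offset) scale (horizontal), for iPGCs against ESCs, iPGCs against somatic cells and somatic cells against ESCs, by gene (vertical). Filled points were called at an adjusted p under 0.05, bars are 95% intervals, and the open *Slc40a1* point at 4.17 is a description without a test. The *Heph* points against ESCs rest on ESC signals below background. *Heph* passed the filter only through somatic arrays, so its filled points in comparisons that involve somatic cells are descriptions.

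Counted over the list, 2 of 8 tested genes (*Aco1* and *Heph*) were called higher in iPGCs than in ESCs and 1 (*Hmox1*) lower, where 24.5% of all genes were called higher and 21.0% lower. The median difference of the 8 was 0.23, against 0.04 over all genes. Against somatic cells, 3 of 9 (*Slc40a1*, *Steap3* and *Tfrc*) were called higher in iPGCs and 1 (*Heph*) lower, where 33.7% and 29.8% of all genes were, and the median was 0.10, against 0.07 over all genes. Somatic cells against ESCs gave 4 of 9 higher (*Aco1*, *Heph*, *Slc11a2* and *Slc40a1*) and 3 lower (*Hmox1*, *Steap3* and *Tfrc*), where 32.6% and 34.7% of all genes were, with medians of 0.30 and -0.02. The counts here and below include *Heph*, which passed the filter through somatic arrays only. Its calls in comparisons that involve somatic cells are therefore descriptions. These shares are near the background, and the 3 comparisons share arrays. In the V6.5 line alone, 2 of 8 differed between iPGCs and ESCs (background 30.2%), and *Slc40a1*, *Steap3*, *Tfrc* and *Heph*, 4 of 9, differed between iPGCs and somatic cells in the V6.5 line (background 51.5%) and in the Oct4-Gfp line (background 50.5%). Of those 4 calls, 2 were left in the V6.5 line without somatic replicate 1, and in the Oct4-Gfp line without either iPGC array or somatic replicate 1.

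Between the lines no gene of the 9 was called. In iPGCs of the Oct4-Gfp against the V6.5 line limma called 0 of 9 genes, of which 3 had an unadjusted p under 0.05, and 1 was called by limma-trend, while over all genes 0% were called (2440 of 12207 had an unadjusted p under 0.05). The *Slc40a1* difference was 0.70 (interval 0.18 to 1.22, adjusted p = 0.148), with both Oct4-Gfp arrays above both V6.5 arrays. In somatic cells 0 of 9 were called, of which 2 had an unadjusted p under 0.05 and 0 were called by limma-trend, against 0.0819% of all genes, and *Slc40a1* differed by -0.21 (interval -0.73 to 0.31, adjusted p = 0.731). For the interaction of line with cell type (iPGCs over somatic cells, Oct4-Gfp minus V6.5) limma called 0 of 9, of which 1 had an unadjusted p under 0.05 and 0 were called by limma-trend, against 0.00819% of all genes. For *Slc40a1* it was 0.92 (interval 0.18 to 1.65, adjusted p = 0.422). The *Gapdh* ratio was 2.03 and 2.37 in Oct4-Gfp iPGCs and 1.51 and 1.63 in V6.5 iPGCs, and with this ratio as a covariate 0 of 9 genes were called for any of the 3 line comparisons.

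Other genes of iron handling were taken from 5 lists, and their counts are descriptions without a test of the list. They are to be read against all genes, where the comparison of iPGCs with somatic cells called 33.7% higher and 29.8% lower and that with ESCs called 24.5% higher and 21.0% lower. Of 11 tested genes of iron uptake and export, 2 were called higher in iPGCs than in somatic cells (*Flvcr2* and *Slc39a14*) and 6 lower, with a median of -0.72, against 0.07 over all genes, and against ESCs 3 were higher and 2 lower. *Slc39a8*, which encodes the metal importer ZIP8, had 114 and 162 in Oct4-Gfp iPGCs and 931 and 218 in V6.5 iPGCs, against 2709 to 3810 in somatic cells and 43.1 and 67.8 in ESCs. It was lower in iPGCs than in somatic cells (log2 difference -3.55, adjusted p = 0.00012). V6.5 iPGC replicate 1 stood apart from the other 3 iPGC arrays for this gene, and the difference of iPGCs from ESCs, 1.95 (adjusted p = 0.0142), was lost without either ESC array (adjusted p up to 0.0951). *Lrp1*, a receptor that takes up haem bound to haemopexin, averaged 122 ± 21.5 in iPGCs, 1331 ± 189 in somatic cells (SD, n = 4 each) and 275 ± 32.6 in ESCs (SD, n = 2), and was lower in iPGCs than in somatic cells (-3.30, adjusted p = 8.02e-07) and ESCs (-1.10, adjusted p = 0.00191). *Steap2*, another ferrireductase, was also lower in iPGCs than in somatic cells (-1.71, adjusted p = 5.7e-06) and ESCs (-1.07, adjusted p = 0.000884). *Flvcr2*, a relative of the haem exporter *Flvcr1*, was higher in iPGCs, with 224 ± 51.3 against 51.4 ± 23.4 in somatic cells (SD, n = 4 each) and 61.0 ± 0.112 in ESCs (SD, n = 2), by 1.90 over somatic cells (adjusted p = 0.000351) and 1.63 over ESCs (adjusted p = 0.00498).

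Of 7 tested genes of iron storage and sensing, 2 had a called rise in iPGCs over somatic cells and 1 a fall (median 0.12), shares below those of all genes (33.7% and 29.8%), and 3 were higher and 4 lower than in ESCs (median -0.32), where 24.5% and 21.0% of all genes were. On V6.5 arrays only, 2 were higher and 1 lower than in ESCs, as under median centring and quantile normalization. The count against ESCs fell to 3 calls without ESC replicate 1, 3 without ESC replicate 2 and 4 without V6.5 iPGC replicate 1 or Oct4-Gfp iPGC replicate 1. *Ncoa4*, the receptor that delivers ferritin to lysosomes, averaged 3198 ± 323 in iPGCs, 1651 ± 323 in somatic cells (SD, n = 4 each) and 1826 ± 167 in ESCs (SD, n = 2). It was higher in iPGCs by 0.96 over somatic cells (adjusted p = 0.000196) and 0.80 over ESCs (adjusted p = 0.00368). *Bmp6*, a ligand that induces hepcidin in the liver, was lower in iPGCs than in somatic cells (-1.31, adjusted p = 0.000928) and ESCs (-1.49, adjusted p = 0.00328). *Hjv*, which encodes the hepcidin co-regulator hemojuvelin, was higher in iPGCs than in somatic cells (1.48, adjusted p = 4.41e-05) with 169 to 219 in iPGCs, 38.4 to 93.8 in somatic cells and 258 and 337 in ESCs, and its difference from ESCs (-0.55, adjusted p = 0.0321) was lost without ESC replicate 1, V6.5 iPGC replicate 1 or either Oct4-Gfp iPGC array (adjusted p up to 0.229), on V6.5 arrays only, and under quantile normalization, median centring, limma-trend or no filter. *Neo1*, a hemojuvelin receptor, was higher in iPGCs than in ESCs by 0.67 (adjusted p = 0.00949), a call lost without ESC replicate 2 (adjusted p = 0.0897).

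Of 17 tested genes of mitochondrial iron and iron-sulphur clusters, 9 had a called rise in iPGCs over somatic cells and 5 a fall (median 0.39), where 33.7% and 29.8% of all genes did, and 2 were higher and 6 lower than in ESCs (median -0.25), where 24.5% and 21.0% of all genes were. Median centring gave 9 higher and 1 lower than in somatic cells and 0 higher and 4 lower than in ESCs, and V6.5 arrays only gave 0 higher and 3 lower than in ESCs. Without either ESC array the comparison with ESCs gave 0 higher and 4 lower, and without Oct4-Gfp iPGC replicate 1 it gave 1 higher and 4 lower. The mitochondrial iron importers differed from each other. *Slc25a37* (mitoferrin 1) averaged 260 ± 22.4 in iPGCs and 632 ± 138 in somatic cells (SD, n = 4 each) and was lower in iPGCs (log2 difference -1.21, adjusted p = 0.000219). *Slc25a28* (mitoferrin 2) averaged 1034 ± 68.0 in iPGCs and 499 ± 41.6 in somatic cells (SD, n = 4 each) and was higher by 1.03 (adjusted p = 5.83e-05). *Fdx1*, a ferredoxin, was higher in iPGCs than in somatic cells by 1.13 (adjusted p = 0.000357), and *Bola3*, an iron-sulphur cluster assembly factor, was lower in iPGCs than in ESCs (log2 difference -0.98, adjusted p = 0.00164).

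Of 11 tested genes of haem synthesis and breakdown, 2 had a called rise in iPGCs over somatic cells and 3 a fall, with a median of 0.10, where 33.7% and 29.8% of all genes did, and 2 were higher and 3 lower than in ESCs, with a median of 0.07, where 24.5% and 21.0% of all genes were. The balance against somatic cells depended on the scaling, with 4 higher and 1 lower under median centring and 4 higher and 2 lower under quantile normalization, and no filter gave 0 higher and 2 lower. On V6.5 arrays only it was 0 higher and 1 lower than in somatic cells and 1 higher and 0 lower than in ESCs. *Alas2*, the erythroid enzyme that starts haem synthesis, had 19.0 to 103 in iPGCs, against 163 to 759 in somatic cells and 26.7 and 44.2 in ESCs, and was lower in iPGCs than in somatic cells (log2 difference -2.78, adjusted p = 0.000386). *Uros*, a later enzyme of the pathway, was higher in iPGCs than in ESCs by 1.63 (adjusted p = 0.00104). The biliverdin reductases *Blvrb* and *Blvra*, which act after *Hmox1*, were called lower in iPGCs than in ESCs over both lines, but neither call held on V6.5 arrays only, the line that has ESCs. *Blvrb* averaged 373 ± 14.6 in Oct4-Gfp iPGCs, 827 ± 110 in V6.5 iPGCs and 1126 ± 26.6 in ESCs (SD, n = 2 each; adjusted p = 0.00121 from limma for both lines), and its difference shrank to -0.44 in the setting where it was smallest. *Blvra* differed by -0.75 (adjusted p = 0.0197), a call that was also lost without either ESC array (adjusted p up to 0.118). The count against somatic cells was 0 higher and 2 lower without V6.5 somatic replicate 1, V6.5 somatic replicate 2 or Oct4-Gfp iPGC replicate 2, 0 higher and 3 lower without either ESC array, V6.5 iPGC replicate 2 or Oct4-Gfp somatic replicate 1, and 1 higher and 2 lower without V6.5 iPGC replicate 1. The count against ESCs was 2 higher and 1 lower without ESC replicate 1 and 1 higher and 1 lower without ESC replicate 2.

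Of 11 tested regulators and targets of the Nrf2 and Bach1 pathway, to which *Hmox1* belongs, 7 had a called rise in iPGCs over somatic cells and 3 a fall (median 0.43), where 33.7% and 29.8% of all genes did, and 2 were higher and 1 lower than in ESCs (median 0.15), where 24.5% and 21.0% of all genes were. Against somatic cells median centring gave 7 higher and 0 lower, and V6.5 arrays only gave 4 higher and 2 lower. *Nqo1*, a quinone reductase, averaged 831 ± 176 in iPGCs and 114 ± 47.7 in somatic cells (SD, n = 4 each) and was higher in iPGCs by 2.77 (adjusted p = 3.09e-06). *Gsr*, glutathione reductase, was higher by 1.19 (adjusted p = 1.5e-05), and *Gclc*, which starts glutathione synthesis, by 0.87 (adjusted p = 0.000198). *Bach1*, the repressor of *Hmox1*, averaged 1673 ± 335 in iPGCs (SD, n = 4) and 845 ± 75.7 in ESCs (SD, n = 2) and was higher in iPGCs by 0.95 (adjusted p = 0.00299). Its difference from somatic cells was -0.41 (adjusted p = 0.0281), lost without V6.5 iPGC replicate 2, Oct4-Gfp iPGC replicate 1, either V6.5 somatic array or Oct4-Gfp somatic replicate 2 (adjusted p up to 0.0833), under median centring and with no filter. Against ESCs the differences of *Nqo1* (0.15, adjusted p = 0.555) and *Gsr* (0.28, adjusted p = 0.0786) were not called, *Gclc* was higher in iPGCs by 0.70 (adjusted p = 0.00418), and *Gclm*, which makes the other subunit of the same enzyme, was the 1 gene of the list called lower. The *Gclm* call was lost with no filter, under median centring and on V6.5 arrays only.

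**Figure D4:**
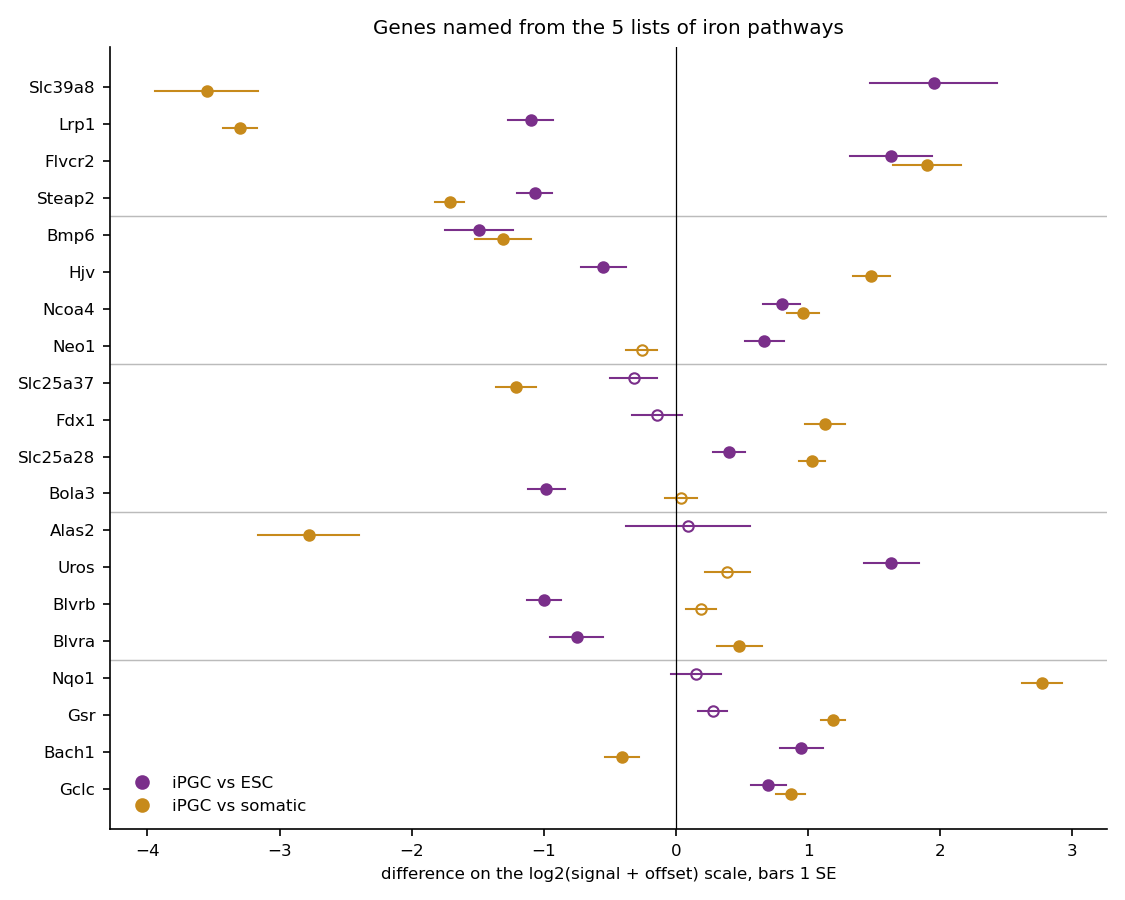
Differences on the log2(signal + offset) scale (horizontal) of the 20 genes named from the 5 lists (vertical, lists divided by lines), for iPGCs against ESCs and iPGCs against somatic cells. Filled points were called, and bars are 1 SE. *Slc39a8* at -3.55 and *Nqo1* at 2.77 mark the ends of the comparison with somatic cells.

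Markers of other cell types that handle much iron moved with some of these groups. For 10 macrophage markers the summed signal was 197 to 392 in iPGCs, 216 to 267 in somatic cells and 611 to 637 in ESCs, and *Adgre1*, *Aif1*, *Fcgr1*, *Itgam* and *Ptprc* were below background on every iPGC array. For 9 erythroid markers it was 301 to 505 in iPGCs, 2929 to 20429 in somatic cells and 405 to 426 in ESCs, with the embryonic globins *Hba-x*, *Hbb-bh1* and *Hbb-y* below background in iPGCs and in ESCs. For 9 visceral endoderm markers it was 180 to 540 in iPGCs, 657 to 1307 in somatic cells and 230 to 248 in ESCs. For 9 markers of feeder fibroblasts it was 461 to 762 in iPGCs, 9489 to 14517 in somatic cells and 966 to 1111 in ESCs, and for 7 endothelial markers it was 643 to 958 in iPGCs, 1882 to 2926 in somatic cells and 820 to 840 in ESCs. Unlike the feeder sum, *Lox* was highest in ESCs (127 and 199, against 9.52 to 16.4 in somatic cells), as was *Thy1* (424 and 447, against 107 to 299). *Col1a1*, also a marker of day 6 somatic cells, had 5804 to 6859 of the somatic feeder sum. *Cd68* alone had 484 and 497 of the macrophage sum in ESCs. The iPGC sums overlapped those of somatic cells for macrophage markers, and those of ESCs for erythroid, visceral endoderm and endothelial markers. The visceral endoderm marker *Ttr*, a carrier of thyroid hormone, had 13.4 to 157 in iPGCs, 192 to 721 in somatic cells and 0.256 and 0.311 in ESCs. *Amn* of the same list was instead higher in iPGCs, with 49.2 to 86.4 against 11.3 to 28.2 in somatic cells and 56 and 60.1 in ESCs. *Slc4a1* of the erythroid list was also higher in iPGCs, with 159 to 233 against 23.3 to 144 in somatic cells. The part of these other cell types in the *Slc40a1* values was not tested. Nor was their part in the somatic values of *Heph*, *Alas2*, *Slc25a37* and *Slc11a2*, whose means were highest in somatic cells. For *Slc11a2* this holds on the main probe set and not on the second brightest.

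Across the 10 arrays, the genes whose main probe sets ran most like *Slc40a1* on the log2 scale were *3110001I22Rik*, *Selenov*, *Shroom3*, *Atp2c1* and *Lcp1*, with Pearson r of 0.986, 0.979, 0.978, 0.976 and 0.976 among 12206 genes. These are descriptions over arrays that share groups and lines. *Lcp1*, an actin-bundling protein, had means of 199 in Oct4-Gfp iPGCs, 187 in V6.5 iPGCs, 83.5 in Oct4-Gfp somatic cells, 65.8 in V6.5 somatic cells and 11.6 in ESCs. *Atp2c1*, a calcium and manganese pump, had means of 2235 in Oct4-Gfp iPGCs, 1911 in V6.5 iPGCs, 1496 in Oct4-Gfp somatic cells, 1574 in V6.5 somatic cells and 901 in ESCs.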

How the data were processed

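The labels name 10 arrays in 5 groups of 2. The deposited values are signal intensities on a linear scale, made by the authors with MAS5 per the labels' processing notes (no version given) and scaled to a trimmed mean of 500 per array with 2% left out at each end. The paper's methods name D-Chip, whose values were not used here. RNA was extracted with a Qiagen RNeasy micro kit and amplified with NuGEN Ovation Pico WTA before labelling.

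The tests left out 64 control features and ran on log2(signal + 14.77), the added value being the 25th percentile of the table. It shrinks differences of dim genes. A probe set was tested if it exceeded the median of its array at least 2 times, which kept 26368 of 45101. The model (limma 3.58.1, R 4.3.3) had 5 residual degrees of freedom and a prior of 2.92. Gene names came from the platform annotation: 34958 probe sets have 1 gene, 932 several and 9211 none. A gene below background on every array of a group was given a fold against that background as a bound. The number of arrays limits the precision. The fits were tested on simulated data. The 9 genes, the lists and the marker lists were chosen with earlier results of these data known. Named from each list were up to 4 called genes with the largest difference. List genes without a tested probe set are not reported here. Alternatives were a doubled offset, a floor, no filter, a filter of 4 arrays, quantile normalization, median centring, limma-trend, a replicate block, the *Gapdh* ratio as a covariate, the V6.5 line alone, other probe sets and each array left out. Plots were drawn with matplotlib 3.10.9. Sequences come from RefSeq.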

Additional observations from a re-analysis of the deposited data

Results flagged for a closer look

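*Steap3* had a signal of 226 on V6.5 iPGC replicate 2, far above the other 3 iPGC arrays at 119 to 135. Of the 18 sets of 4 arrays examined, chance would mark about 1 in 20. Without that array the difference of iPGCs from ESCs was -0.14, and that from somatic cells stayed called.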

How the results depend on the processing

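With the *Gapdh* ratio as a covariate the called genes of the 9 fell to 0 for iPGCs against ESCs, 3 for somatic cells against ESCs, 1 for iPGCs against ESCs in the V6.5 line and 2 for iPGCs against somatic cells in the Oct4-Gfp line, and the differences of *Steap3* (iPGCs against ESCs, -0.29) and *Ireb2* (somatic cells against ESCs, -0.03) changed sign. Limma-trend called 5 for iPGCs against ESCs and 1 between the iPGC lines, and the filter of 4 arrays, which leaves out *Heph*, called 1 for iPGCs against ESCs in the V6.5 line. With each array left out in turn, the called genes ranged from 1 to 3 for iPGCs against ESCs in the V6.5 line, and from 2 to 4 for iPGCs against somatic cells within either line. The sign of some differences that were not called changed: with an array left out they ranged from -0.14 to 0.28 for *Steap3* in iPGCs against ESCs, from -0.10 to 0.17 for *Aco1* in iPGCs against somatic cells and from -0.002 to 0.41 for *Aco1* in V6.5 iPGCs against ESCs. On V6.5 arrays only, iPGCs against somatic cells gave -0.15 for *Aco1* and -0.08 for *Ireb2*. *Fth1* gave 0.17 for iPGCs against ESCs and 0.37 for somatic cells against ESCs under quantile normalization, and 0.09 for iPGCs against somatic cells under median centring. The second brightest probe set gave -0.23 for *Slc11a2* in iPGCs against ESCs, 0.06 in iPGCs against somatic cells and -0.29 in somatic cells against ESCs, and -0.23 for *Aco1* in iPGCs against somatic cells. The cause of these changes was not tested.

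Median centring moved the median difference of all genes to 0.28, against 0.07, for iPGCs against somatic cells and to -0.24, against -0.02, for somatic cells against ESCs, and the share of calls that were higher to 65.6%, against 53.1%, and to 37.7%, against 48.4%. Over all genes 5552 were called between iPGCs and ESCs, 3138 on V6.5 arrays only, 3612 without ESC replicate 1 and 2846 without ESC replicate 2. Between somatic cells and ESCs the count was 3893 with the *Gapdh* ratio as a covariate and 8211 without it. Same-numbered arrays of 2 groups deviated together at a correlation of -0.292 to 0.262 over 10 pairs of groups, so the numbers do not pair them. With the replicate number as a block, 2 of the 9 genes were called for iPGCs against ESCs (5205 of all genes), the *Aco1* call being lost, and the counts of the other 8 comparisons did not change. The dimmest results are limited by signal over background, as for *Heph* in ESCs.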
